A study of Cucumis sativus with 25 samples.

Results

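The cucumber shoot apex libraries counted 249 mature miRNAs, and 87 of them formed the set described here: miRNAs that the study could not place in a known family and whose listed mature sequence was 22 nt (18 miRNAs) or 23 nt (69 miRNAs) long. They are named n-mir with the number the study gave them. In all, 181 of the 249 miRNAs lay outside the known families and 68 belonged to one. Of the 181, 95 were 22 or 23 nt long, 80 were 21 nt, 6 were 20 nt and 0 were 24 nt. Of the 95, 8 were left out by number. How those 8 behaved is given beside the main temperature counts, the median level and the summed CPM.

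Seedlings of the inbred line 9930 were raised in climate chambers under 4 treatments, with 3 biological replicates of each, and small RNA of dissected shoot apices was sequenced from each replicate. HL plants had 16 h of light at 28 °C and 8 h of dark at 25 °C, and HS plants had 8 h of light and 16 h of dark at the same temperatures. LL plants had 16 h of light at 20 °C and 8 h of dark at 15 °C, and LS plants had 8 h of light and 16 h of dark at those cooler temperatures. HL and HS are called warm, and LL and LS cool. Each library is bulk tissue of pooled apices, so a lower level may mean fewer cells that make a miRNA or less of it per cell, which cannot be told apart. The shoot apex label was not checked against marker genes, because the reference used here names no transcript of the mRNA table.

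Plant miRNAs are cut from hairpin transcripts by DICER-LIKE enzymes and then guide an ARGONAUTE protein to mRNAs with which they pair closely along most of their length. DICER-LIKE1 makes most of them at 21 nt, and a 22-nt miRNA can, in Arabidopsis, start the production of secondary small interfering RNAs from the mRNA it cuts. DICER-LIKE3 makes the 24-nt small RNAs that guide DNA methylation. The first base helps to sort a small RNA: in Arabidopsis, ARGONAUTE1 prefers U, ARGONAUTE2 prefers A and ARGONAUTE5 prefers C. Shoot apices hold the meristem and the youngest leaf and flower primordia, and known miRNA families set leaf shape and developmental timing there.

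The 14 members that passed a test of temperature are shown first, because the comparisons turn on them. Each is written 5′ to 3′ with T for U as in the deposited table, and bases 2 to 8, the seed, are in capitals. The first 11 were lower in warm than in cool apices, n-mir257 and n-mir115 were higher, and n-mir313 was higher in HL than in LL.
n-mir141: tTTGACACgagcacctgaaaaat
n-mir225: tTAGAAGAagaagaaggacacaa
n-mir309: tAGAAACAagtagaagttataat
n-mir124: tACAATGTtaagtatggacgag
n-mir125: tGGAGAGAgggcggtgatttcc
n-mir185: tGAGAAGAagtagaagagaaatt
n-mir12: tTTTTAACagattaattggaca
n-mir70: gGAATATCgtagttggtggctt
n-mir314: cGAAGTAGacacataagatggaa
n-mir286: tTGGGTTGggttaggttgggttc
n-mir78: gGATATGAtgaggacgctatggg
n-mir257: aTGAGAGAagtggaaggagtata
n-mir115: cTAGTGGTaaaaagggagacata
n-mir313: tGTTTAAAggagtggaacggtg

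The 7 other members among the 10 with the highest mean level are shown next, because with n-mir124, n-mir12 and n-mir313 they hold 62.8% of the counts of the set.
n-mir133: cCTGTGTTctgtttgtcgttgg
n-mir289: cAATTAATctcgaatcgttggag
n-mir282: aATGTTGAaaatgagcgtcgtat
n-mir219: cGAGAAGAagaagaatgacataa
n-mir229: cGATAGAAaggtctttgacgga
n-mir152: aGAAGAGAtgacgaccacagttt
n-mir216: aTAAATTGatagtagatcgtttt

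Seeds shared with another miRNA of the table are shown next. n-mir220 has the seed TTGGATT of miR159, n-mir293 the seed GAAGCTG of miR167 and n-mir267 the seed AAATTAA of miR4234. n-mir186 and n-mir253 share TTGATTG, n-mir205 shares GATAGAA with n-mir229, and n-mir185 shares GAGAAGA with n-mir219. n-mir286 has the seed TGGGTTG of n-mir181, which lies outside the set, and GAGAAGA is also the seed of n-mir250, 1 of the 8 left out by number. In plants a target pairs along the whole miRNA, so a shared seed alone does not make a family.
n-mir220: tTTGGATTtggtacaagattcgt
n-mir293: aGAAGCTGgccaacatgaatttg
n-mir267: cAAATTAAggatgtgtttggcc
n-mir186: tTTGATTGtgcaagtgttgatga
n-mir253: aTTGATTGtgtatgaaagttgtt
n-mir205: tGATAGAAgttgaagatgaaatt

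n-mir38 is shown because its sequence is repetitive, with 3 copies of GGATTA.
n-mir38: gGATTAGGattaggattaggatt

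The most alike pair was n-mir219 and n-mir225, which share 19 of 23 positions without a gap. Counted from 1 at the 5′ end, with the base of n-mir219 first, they differ by C1T, G2T, T16G and T21C. n-mir194 and n-mir216 share 17 of 23 positions. The deposited counts tolerate a limited number of mismatches near both ends of a tag and none in the middle. n-mir194 and n-mir216 also differ in the middle, by C9A, C12G and A13T (base of n-mir194 first), so that rule would keep their tags apart. For n-mir219 and n-mir225, T16G lies farther from the ends than their other differences. The study does not say where the middle begins, so how far these members share tags is uncertain.

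Hairpin precursors were given for 85 of the 87 members. Those of 3 members are shown, written 5′ to 3′ with the mature miRNA in capitals: n-mir141, which had the smallest p for temperature, n-mir257, the called member with the largest rise in warm apices and n-mir309, whose mature part is the most completely paired of the 3.
n-mir141 precursor: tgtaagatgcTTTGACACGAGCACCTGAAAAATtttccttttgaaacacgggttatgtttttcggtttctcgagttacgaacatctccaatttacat
n-mir257 precursor: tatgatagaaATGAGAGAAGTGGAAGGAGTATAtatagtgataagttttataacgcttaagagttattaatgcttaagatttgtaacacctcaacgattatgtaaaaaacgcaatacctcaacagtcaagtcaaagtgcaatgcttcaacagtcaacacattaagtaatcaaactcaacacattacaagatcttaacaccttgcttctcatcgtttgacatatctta
n-mir309 precursor: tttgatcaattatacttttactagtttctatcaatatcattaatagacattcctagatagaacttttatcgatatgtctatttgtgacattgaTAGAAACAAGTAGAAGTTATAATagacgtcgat

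Of the 85 precursors, 51 carry the mature sequence in the 5′ arm and 34 in the 3′ arm. They are 70 to 360 bases long (median 178). RNAfold gave the precursors minimum free energies of -85.1 to -17.6 kcal/mol (median -34.6). In these folds a median of 18 mature bases were paired with bases outside the mature sequence. The mature sequence of n-mir141 had 19 of 23 bases paired, that of n-mir257 had 19 of 23 and that of n-mir309 had 21 of 23. n-mir311 and n-mir293 had 50% or less of the mature bases paired, with 10 and 11 of 23.

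Levels are given as CPM, counts per 1000000 clean small RNA reads of the library, which is the scale the study used. The 249 miRNAs summed to 609415 to 1551482 counts in a library, and the 87 members to 16955 to 21994, or 1.32 to 3.20% of those counts. In all 12 libraries the members had 234414 counts. A floor of 3 counts is 0.170 to 0.180 CPM, and floors cover counting error only. No library was a copy of another, and log2 values of replicates of a treatment correlated with r of 0.973 to 0.995 across miRNAs, which are not independent replicates.

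A few members held most of the counts, and most members were rare. n-mir124 and n-mir133, both of 22 nt, averaged 198 and 165 CPM over the 12 libraries and held 31.7% of the member counts, and the 10 most abundant members held 62.8%. Mean levels ran down to 0.0246 CPM for n-mir28, with a median of 2.17 CPM. Besides the 2 members over 100 CPM, 25 members averaged 10 to 100 CPM, 27 averaged 1 to 10, 27 averaged 0.1 to 1 and 6 averaged less. 75 of the 87 were counted in every library. n-mir28 had 5 counts in all, 1 in each of HL replicate 1, LL replicate 1, LS replicate 1, LS replicate 2 and LS replicate 3, and was the only member under the 10 counts needed for a test.

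**Figure D1:**
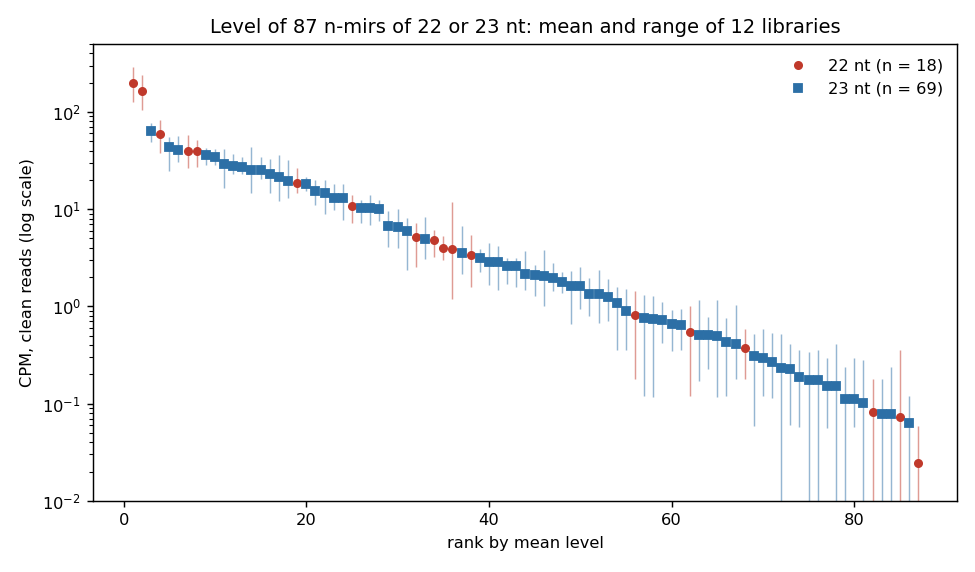
Mean level of each of the 87 n-mirs over 12 libraries (y axis, CPM on a log scale) by rank (x axis), with 18 of 22 nt as red circles and 69 of 23 nt as blue squares. Vertical lines run from the lowest to the highest library, and a line that meets the lower edge reaches 0 or a value too low to draw. The highest mean is 198 CPM and the lowest 0.0246 CPM.

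The 22-nt members were the more abundant by median, with 4.42 CPM against 1.98 CPM for the 23-nt members, and 5 of the 10 most abundant members were 22 nt long. Their ranges overlapped widely, from 0.0246 to 198 CPM and from 0.0633 to 63.2 CPM. The median over all 87 members, 2.17 CPM, stood beside 0.735 CPM for the 80 n-mirs of 21 nt, 7.79 CPM for the 8 left out by number and 18.6 CPM for the 68 known miRNAs. These are descriptions and were not tested.

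T was the first base of 48 of the 87 members (55.2%), A of 21, C of 12 and G of 6. Among the 80 n-mirs of 21 nt, T was first in 55 (68.8%). The 3′ ends differed in number by length: 36 of 69 ended in TT (52.2%), beside 1 of 18 of 22 nt, 5 of the 80 n-mirs of 21 nt (6.25%) and 4 of the 21 known miRNAs of 22 or 23 nt. Members ending in TT had a median level of 0.750 CPM, and the other 50 had 4.86 CPM. Examples are n-mir216 and n-mir152 among the abundant members and n-mir38 and n-mir185 among the rare ones. G and C made up a median of 34.8% of the bases of a member, and 38.1% in the n-mirs of 21 nt.

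Summed over the 87 members, the mean level was lower in warm than in cool apices. It was 1059.8, 1057 and 1126 CPM in HL, 1033, 974 and 1109.9 CPM in HS, 1112, 1164 and 1313 CPM in LL, with 1271, 1282 and 1248 CPM in LS. HL replicate 3 lay above LL replicate 1, and the other warm libraries lay below every cool library. The means were 1081 ± 39.1 in HL, 1039 ± 68.3 in HS, 1196 ± 104 in LL, with 1267 ± 17.1 CPM in LS (SD, n = 3 each), and the sum was not tested, since it is a score over chosen members.

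Of this sum, the 22-nt members gave 479 CPM in HL, 503 in HS, 586 in LL, with 646 in LS, and the 23-nt members gave 602, 536, 609.9 and 621 CPM in HL, HS, LL and LS. n-mir124 and n-mir133 weigh heavily in the sum of the 22-nt members. Without the 3 most abundant members, the sum of the other 84 was 653 to 765 CPM over the 6 warm libraries and 665 to 828 CPM over the 6 cool ones, which overlap. As a share of all miRNA counts the members were 2.50% in HL, 1.69% in HS, 2.52% in LL, with 2.28% in LS, an order set in part by the known miRNAs in the divisor.

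For single members the spread between replicates was sizeable. Over the 65 members with at least 100 counts, the median coefficient of variation within a treatment was 15.1% in HL, 16.0% in HS, 21.9% in LL, with 24.3% in LS. The most even member was n-mir217, whose highest library was 1.36 times its lowest. LS held the highest mean of 32 of these members and HS the lowest mean of 28, and HL held the highest mean of 21.

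The question behind the treatments is whether temperature or day length changes the level of each miRNA. Each of the 248 miRNAs with at least 10 counts was tested with edgeR's quasi-likelihood test on the counts, and called when the Benjamini-Hochberg adjusted p over all 248 was under 0.05. Changes are log2 ratios with their standard error, and a negative value means lower in the first-named treatment. All tests are two-sided.

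Between warm and cool apices, 13 of the 86 members tested were called, 2 higher and 11 lower in warm. Among all 248 miRNAs, 5.65% were called higher and 15.3% lower, so the share of members called, 15.1%, did not exceed that of the whole table, 21%. The 8 left out by number bear on this, since 7 of them were called, and with them 20 of 94 were (21.3%). By length, 4 of 17 members of 22 nt were called, all lower, and 9 of 69 of 23 nt. The median log2 change was -0.06 over the members, with 39 above 0 and 47 below, and -0.11 over all 248. The study's limits were over 2-fold and a p under 0.001, here applied to edgeR's unadjusted p and not to the p the study computed. They called 0 members and 7.26% of all miRNAs. They also called 5 of the 8 left out by number, so the 0 holds only for the set without those 8. At an unadjusted p under 0.05 there were 23 members, beside 80 of all 248.

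The split by direction depended on the scaling. With TMM scaling on the miRNA counts, which raised the median log2 change of all 248 by 0.16, 6 members were called higher and 8 lower, beside 21 higher and 27 lower of all 248 miRNAs, and 10 of the 13 members kept their call. n-mir78, n-mir286 and n-mir314 lost it, and n-mir205, n-mir219, n-mir262 and n-mir313 were called higher in warm in their place, by 0.51, 0.41, 0.51 and 0.55 on the log2 scale. None of the 13 changed sign under any alternative run.

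The clearest of these was n-mir141, of 23 nt. Its level was 14.6, 15.3 and 16.7 CPM in HL, 20.2, 16.8 and 19.7 in HS, 29.4, 26 and 26 in LL, with 33.0, 30.9 and 26.5 in LS. Every warm library lay below every cool one, and the log2 change was -0.74 ± 0.12 (SE, 12 libraries), with an adjusted p of 0.000659. Its means were 17.2 ± 2.28 CPM in warm and 28.6 ± 2.93 CPM in cool apices (SD, n = 6 each), 1.67 times higher in cool.

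n-mir225 fell to a similar extent. It stood at 20.4, 12.2 and 14.6 CPM in HL, 15.6, 15.5 and 13.2 in HS, 30.4, 23.2 and 25.0 in LL, with 36.5, 28.4 and 23.2 in LS. No warm library reached the lowest cool one, and the change was -0.86 ± 0.16 (adjusted p = 0.00151). Its near copy n-mir219, 19 of 23 positions alike, did not pass the test: 56.6, 45.4 and 42.9 CPM in HL, 42.6, 40.8 and 38.0 in HS, 36.1, 38.4 and 37.9 in LL, with 37.7, 42.7 and 30.8 in LS, with a change of 0.25 ± 0.12 (adjusted p = 0.187). The difference between the changes of this pair was not tested. n-mir309 also stood apart in all libraries, at 18.8, 18.0 and 14.8 CPM in HL, 23.3, 17.2 and 16.6 in HS, 44.0, 24.7 and 24.8 in LL, with 43.2, 29.3 and 29.8 in LS. Its change was -0.85 ± 0.18 (adjusted p = 0.00416). LL replicate 1 and LS replicate 1 gave its highest values, and without both libraries the change was -0.58 (adjusted p = 0.00426).

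The 4 members of 22 nt that fell were of very different levels. n-mir124, the most abundant member, had 127, 139 and 178 CPM in HL, 151, 156 and 183 in HS, 191, 194 and 263 in LL, with 255, 249 and 293 in LS. The warm and cool libraries did not overlap, and the change was -0.62 ± 0.14 (adjusted p = 0.00724). n-mir12 had 27.0, 26.7 and 33.4 CPM in HL, 32.7, 26.7 and 41.9 in HS, 44.5, 32.2 and 50.4 in LL, with 57.6, 45.6 and 54.6 in LS. Its groups overlapped, with HL replicate 3, HS replicate 1 and HS replicate 3 above LL replicate 2, and the change was -0.59 ± 0.15 (adjusted p = 0.0137).

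n-mir125 had 1.48, 1.20 and 2.48 CPM in HL, 2.67, 2.47 and 2.96 in HS, 6.94, 3.11 and 4.21 in LL, with 11.7, 3.01 and 4.57 in LS. It did not overlap between warm and cool, but its cool levels rested on 2 libraries: LL replicate 1 and LS replicate 1 were far above the other 4. The change was -1.36 ± 0.33 (adjusted p = 0.00881), and without those 2 libraries it was -0.79 (adjusted p = 0.0192). n-mir70 was rare, with 14, 5 and 7 counts in HL, 6, 15 and 3 in HS, 16, 21 and 17 in LL, with 25, 22 and 18 in LS. Its warm libraries all lay below its cool ones in CPM, and the change was -1.24 ± 0.33 (adjusted p = 0.0155).

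The other 4 members that fell in warm apices overlapped between the groups. n-mir185, with the seed it shares with n-mir219, was counted 3, 4 and 2 times in HL, 8, 4 and 8 in HS, 14, 5 and 12 in LL, with 20, 13 and 9 in LS. Its change was -1.40 ± 0.36 (adjusted p = 0.0126), and without LL replicate 1 and LS replicate 1 together it was -1.10 (adjusted p = 0.0645). n-mir314 had 3.43, 3.06 and 3.60 CPM in HL, 3.75, 4.25 and 4.50 in HS, 8.12, 5.44 and 3.85 in LL, with 8.32, 5.49 and 4.87 in LS. Its change was -0.68 ± 0.20 (adjusted p = 0.0255), which fell to -0.39 (adjusted p = 0.089) without LL replicate 1 and LS replicate 1. The call was lost without HL replicate 1, HL replicate 2, HS replicate 1, HS replicate 2, LL replicate 1 or LS replicate 1, with adjusted p of 0.0511 to 0.0677.

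n-mir286 had 6.03, 6.17 and 3.96 CPM in HL, 4.83, 6.95 and 4.02 in HS, 6.94, 8.15 and 7.39 in LL, with 7.63, 10.2 and 7.25 in LS. Its change was -0.57 ± 0.18 (adjusted p = 0.0347), and the call was lost without HL replicate 1, HL replicate 3, HS replicate 1, HS replicate 3, LL replicate 2, LL replicate 3 or LS replicate 2, with adjusted p of 0.0506 to 0.0887. n-mir78 had 18, 12 and 16 counts in HL, 12, 22 and 20 in HS, 34, 23 and 21 in LL, with 34, 19 and 40 in LS. Its change was -0.77 ± 0.25 (adjusted p = 0.043), the weakest of the 13. The call held only without LL replicate 2 or LS replicate 2, and without any 1 of the other 10 libraries the adjusted p was 0.0502 to 0.115.

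Members higher in warm apices were n-mir257 and n-mir115, both of 23 nt. n-mir257 had 7.92, 7.79 and 8.38 CPM in HL, 9.31, 9.53 and 8.46 in HS, 4.86, 5.89 and 4.81 in LL, with 4.10, 6.08 and 4.10 in LS. All 6 warm libraries exceeded all 6 cool ones, and the change was 0.78 ± 0.14 (adjusted p = 0.00151), 1.72 times higher in warm. n-mir115 had 2.42, 2.04 and 1.89 CPM in HL, 2.78, 2.12 and 2.78 in HS, 1.54, 1.47 and 1.44 in LL, with 1.5, 1.95 and 1.78 in LS. HL replicate 3 lay below LS replicate 2, so the groups overlapped, and the change was 0.53 ± 0.17 (adjusted p = 0.0353). Its call held only without HL replicate 3, HS replicate 2 or LS replicate 2, and without 1 of the other 9 libraries the adjusted p was 0.0573 to 0.0915. The other 9 called members kept their call whichever library was left out.

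**Figure D2:**
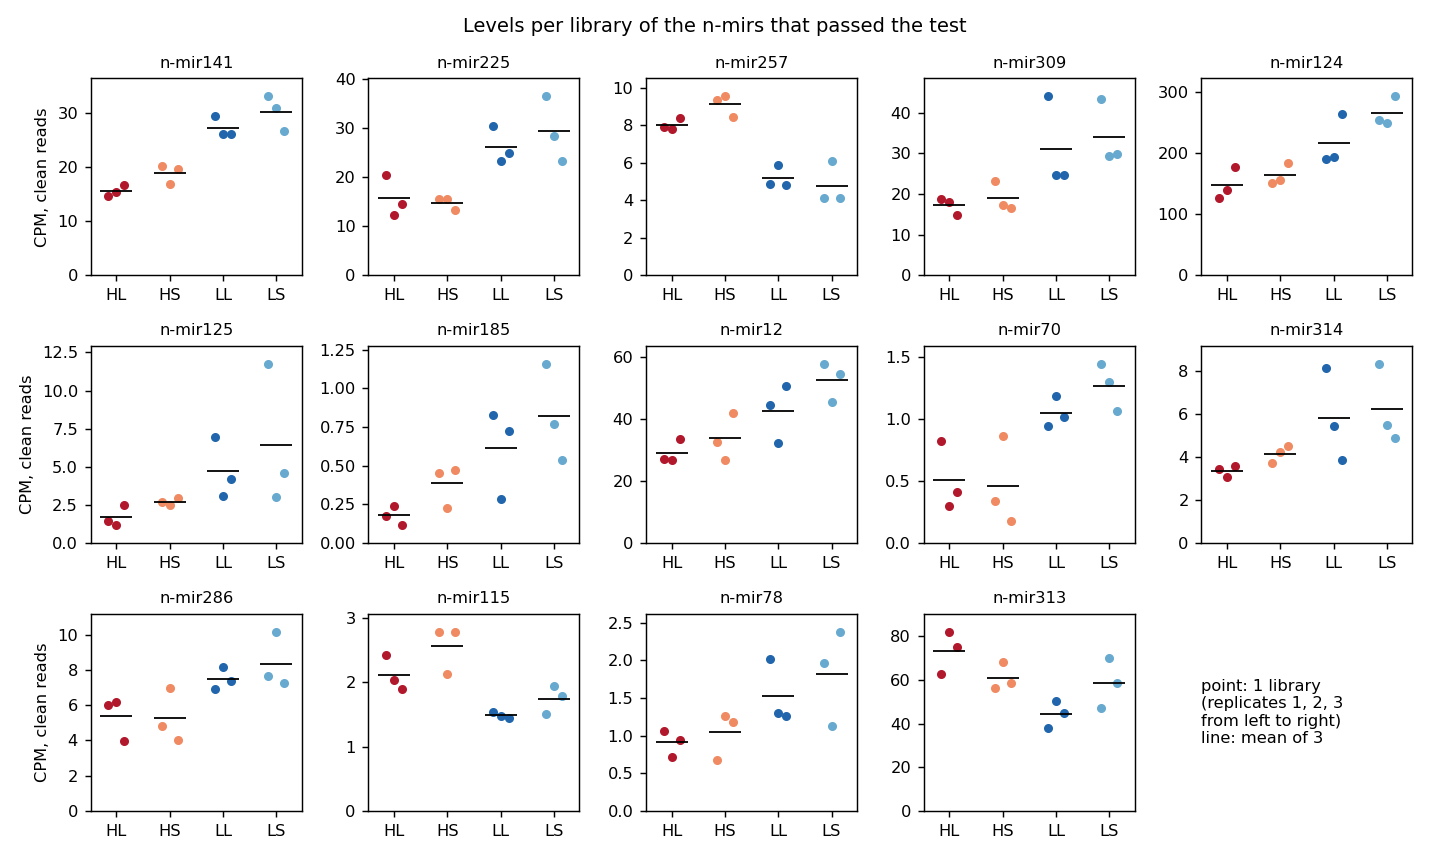
Level of the 14 called n-mirs in each library (y axis, CPM from 0, a scale for each panel) by treatment (x axis: HL, HS, LL, LS), with replicates 1 to 3 from left to right as points and the mean of 3 as a line. n-mir257 and n-mir115 are higher in HL and HS than in LL and LS, n-mir313 is higher in HL than in LL, and the other 11 are lower in HL and HS.

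Within the short photoperiod, HS against LS, 5 of 86 members were called, 1 higher and 4 lower in HS, beside 3.23% and 8.87% of all 248 miRNAs. Of the 8 left out by number, 4 were called, and with them 9 of 94 were (9.57%). The 5 members were n-mir257 (0.93 ± 0.20, adjusted p = 0.0113), n-mir225 (-0.99 ± 0.23, adjusted p = 0.0154), n-mir141 (-0.68 ± 0.17, adjusted p = 0.0167), n-mir124 (-0.70 ± 0.20, adjusted p = 0.0367) and n-mir309 (-0.84 ± 0.26, adjusted p = 0.0484). For each, the 3 HS libraries lay on one side of the 3 LS libraries, which are the libraries that gave the calls. How many of all 248 do so was not counted, so this adds nothing to the calls. In the main comparison, without TMM, 19 members had an unadjusted p under 0.05, beside 64 of all 248. With TMM scaling n-mir257 was the only member called, beside 18 of all 248. With the replicate number as a block, 8 members were called, 1 higher and 7 lower, beside 40 of all 248, and they included these 5. The 3 pairs of HS and LS libraries with the same number had deviations correlated at 0.152, 0.405 and 0.235 across miRNAs. The median log2 change was -0.13 over the members and -0.15 over all 248.

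With 1 library left out, only n-mir257 kept its HS against LS call in every case. n-mir225 lost it without HS replicate 3 (adjusted p = 0.058), and n-mir141 without HS replicate 2 or LS replicate 1 (adjusted p = 0.0537 and 0.081). n-mir124 lost it without HL replicate 2, HS replicate 1, HS replicate 2, HS replicate 3, LS replicate 1 or LS replicate 3 (adjusted p of 0.0558 to 0.145), and n-mir309 without HL replicate 1, HL replicate 2, HL replicate 3, HS replicate 1, HS replicate 2, HS replicate 3, LS replicate 1 or LS replicate 3 (adjusted p of 0.0534 to 0.168). The number of members called was 2 without HS replicate 3 or without LS replicate 1, beside 17 and 18 of all miRNAs tested. It was 3 without HS replicate 2, beside 21 of all.

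Within the long photoperiod, HL against LL, 2 members were called, 1 higher and 1 lower in HL, beside 3.23% and 6.05% of all 248. Of the 8 left out by number, 6 were called, and with them 8 of 94 were (8.51%). n-mir141 was lower in HL (-0.81 ± 0.17, adjusted p = 0.00942). n-mir313, a 22-nt member among the 5 most abundant, was higher in HL, and its level was 62.6, 81.9 and 74.9 CPM in HL, 56.3, 68.2 and 58.7 in HS, 37.8, 50.4 and 44.8 in LL, with 47.2, 70.2 and 58.7 in LS. HL lay above LL in all libraries, at 73.1 ± 9.78 and 44.3 ± 6.33 CPM (SD, n = 3 each), while HS and LS overlapped. Its change was 0.72 ± 0.20 in HL against LL (adjusted p = 0.0366) and 0.06 ± 0.20 in HS against LS, and the test of the difference between these changes gave an adjusted p of 0.937. The call of n-mir141 was lost without HL replicate 2 (adjusted p = 0.0504), and that of n-mir313 without HL replicate 2, HL replicate 3, HS replicate 1, HS replicate 2, LL replicate 1, LL replicate 3 or LS replicate 3 (adjusted p of 0.0505 to 0.153). The number of members called went up to 7 without LS replicate 1 and 5 without LL replicate 2, beside 34 and 25 of all miRNAs tested. It was 4 without LS replicate 2 and 0 without HL replicate 2, beside 28 and 7 of all. It was 1 without HL replicate 3, HS replicate 1, HS replicate 2, LL replicate 1, LL replicate 3 or LS replicate 3, beside 9 to 15 of all. With the replicate number as a block 11 members were called, 4 higher and 7 lower in HL, beside 41 of all 248. The same-number pairs of HL and LL correlated at 0.151, 0.0328 and 0.123.

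**Figure D3:**
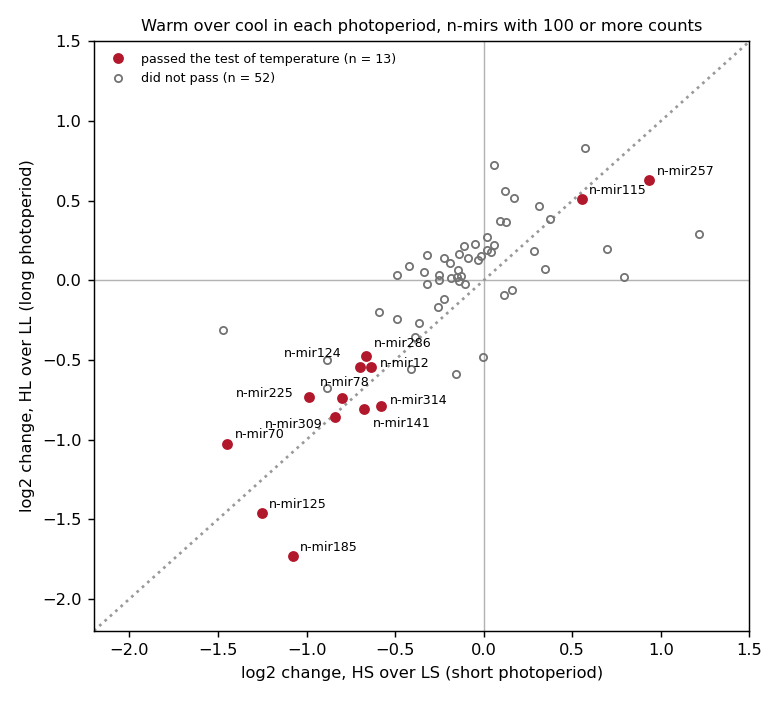
Log2 change of HS over LS (x axis) and of HL over LL (y axis) for the 65 n-mirs with at least 100 counts, with the dotted line marking equal changes. The 13 called for temperature (filled, chosen by the average of both axes) lie toward the lower left, such as n-mir70 at -1.45 and -1.03, or the upper right, such as n-mir257 at 0.93 and 0.63.

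Day length gave no call among the members. In the average over both temperatures, HL and LL were set against HS and LS. With an adjusted p under 0.05, 0 of 86 members passed edgeR's test, beside 0.806% of all 248. An unadjusted p under 0.05 was found for 0 members, beside 20 of all 248. DESeq2 called 0 members as well. Over the 65 members with at least 100 counts, the log2 changes ran from -0.76 to +0.46, with a median standard error of 0.20. In HL against HS, edgeR called 0 members and 0.403% of all 248, and in LL against LS it called 0 members and 0% of all. At an unadjusted p under 0.05 there were 3 members in HL against HS (n-mir4, n-mir121 and n-mir205), beside 18 of all 248. In LL against LS there was 1 (n-mir38), beside 13 of all 248. DESeq2 called 0 members in both. n-mir4 and n-mir121 had at most 4 and 6 counts in a library.

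Whether the effect of day length differed between warm and cool was tested with the interaction, HL minus HS less LL minus LS. edgeR called 0 members and 0% of all 248, and DESeq2 called 0 members. In edgeR 2 members (n-mir4 and n-mir313) had an unadjusted p under 0.05, beside 11 of all 248. The median standard error of this term was 0.40 on the log2 scale over the 65 members with at least 100 counts, beside 0.20 for temperature, so only larger differences could have passed.

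Among the most abundant members, n-mir124, n-mir12 and n-mir313 are given with the calls above, and the other 7 of the 10 did not pass a test of temperature. n-mir133 had 104, 114 and 168 CPM in HL, 173, 109 and 196 in HS, 207, 163 and 211 in LL, with 239, 136 and 156 in LS. Its warm and cool libraries overlapped, and its change of -0.37 ± 0.20 had an adjusted p of 0.216. n-mir289 had 64.0, 73.0 and 66.8 CPM in HL, 55.9, 50.7 and 61.1 in HS, 49.4, 73.7 and 77.8 in LL, with 48.7, 68.6 and 68.9 in LS (change -0.07 ± 0.15, adjusted p = 0.823). n-mir282 had 48.3, 46.4 and 47.6 CPM in HL, 37.6, 39.7 and 46.3 in HS, 25.2, 51 and 52.6 in LL, with 24.4, 55.4 and 51.6 in LS (change 0.03 ± 0.22, adjusted p = 0.943). Both stood lowest in LL replicate 1 and LS replicate 1. n-mir229 had 46.0, 51.1 and 46.3 CPM in HL, 35.7, 38.7 and 37.9 in HS, 27.2, 41.8 and 41.8 in LL, with 27.9, 43.9 and 33.4 in LS (change 0.23 ± 0.15, adjusted p = 0.333). n-mir152 had 35.5, 41.6 and 40.3 CPM in HL, 30.5, 31.8 and 34.5 in HS, 28.5, 37.5 and 40.5 in LL, with 30.9, 42.8 and 39.3 in LS, and n-mir216 had 38.9, 34.7 and 35.3 CPM in HL, 29.4, 33.8 and 28.9 in HS, 28.7, 40.5 and 37.1 in LL, with 37.0, 42.0 and 30.8 in LS. For both, the warm and cool ranges overlapped, with changes of -0.04 ± 0.13 and -0.11 ± 0.13 (adjusted p = 0.89 and 0.684).

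The members that share a seed with a known family were of middling level. n-mir220, with the seed of miR159, a family that in other plants targets MYB transcription factors, averaged 13.9 ± 0.335 in HL, 13.5 ± 2.23 in HS, 15.6 ± 5.92 in LL, with 16.1 ± 4.52 in LS, in CPM (SD, n = 3 each), with a temperature change of -0.21 ± 0.20 (adjusted p = 0.55). n-mir293, with the seed of miR167, whose family targets auxin response factors, averaged 23.5 ± 1.66 in HL, 21.4 ± 1.70 in HS, 28.3 ± 5.34 in LL, with 27.5 ± 6.63 in LS, in CPM (change -0.32 ± 0.14, adjusted p = 0.151). n-mir267, with the seed of miR4234, averaged 11 ± 1.49 in HL, 10.3 ± 0.465 in HS, 10.2 ± 2.58 in LL, with 11.8 ± 4.00 in LS, in CPM (change -0.04 ± 0.19, adjusted p = 0.913). None of the 3 was called in any of the 7 comparisons, and without LL replicate 1 and LS replicate 1 n-mir220 alone of them was called lower in warm, with a change of -0.46 (adjusted p = 0.0132).

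Of the 3 pairs of members with a common seed, 1 had a common level. n-mir219 averaged 40.8 CPM and n-mir185 0.499 CPM with the seed GAGAAGA, and n-mir229 averaged 39.3 CPM and n-mir205 13.1 CPM with GATAGAA. n-mir186 and n-mir253, with TTGATTG, were alike at 10.2 and 10.2 CPM. n-mir186 had a temperature change of -0.14 ± 0.15, n-mir253 of 0.05 ± 0.18 and n-mir205 of 0.34 ± 0.14 (adjusted p = 0.614, 0.905 and 0.102).

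A rare member was n-mir38, with its tandem repeat. It was counted 7, 7 and 5 times in HL, 6, 9 and 5 in HS, 7, 5 and 5 in LL, with 2, 4 and 1 in LS. Its change was 0.81 ± 0.34 (adjusted p = 0.118).

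Libraries of LL and LS with the same number deviated from their treatment in the same way, most of all replicate 1. Over the 65 members with at least 100 counts, the log2 ratio of replicate 1 to the mean of replicates 2 and 3 in LL correlated with that in LS, with r = 0.751 and rho = 0.796. In HL and HS the same r was 0.273. The points are members that share their libraries and their depth, so these values are a description. The 118 other miRNAs with at least 100 counts gave 0.716 in LL and LS and 0.30 in HL and HS. The pattern ran through the other miRNAs as well. Across all tested miRNAs the deviations from the treatment mean correlated between LL and LS at 0.763 for replicate 1, 0.705 for replicate 2 and 0.470 for replicate 3. The deviations within a treatment sum to 0, so a shift of replicate 1 alone would also make replicates 2 and 3 correlate. These values therefore cannot tell whether the pattern was limited to replicate 1.

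In both LL and LS, replicate 1 was at least 1.5-fold below the mean of replicates 2 and 3 for 11 of the 65 members (16.9%) and at least 1.5-fold above it for 9 (13.8%), while in both HL and HS the numbers were 1 and 0. Of the 118 other miRNAs, 17 (14.4%) were that far below in both LL and LS and 22 (18.6%) that far above, so the shares were similar. The members named here were chosen after their values were seen. n-mir288 had 6.09, 5.99 and 7.79 CPM in HL, 5.17, 6.09 and 7.75 in HS, 2.49, 6.97 and 8.06 in LL, with 2.37, 6.37 and 6.89 in LS. The log2 ratios of replicate 1 to the mean of replicates 2 and 3 were -1.59 in LL and -1.48 in LS. n-mir272 had 27.4, 33.3 and 29.8 CPM in HL, 20.0, 25.3 and 32.7 in HS, 16.6, 32.8 and 41.1 in LL, with 18.2, 36.9 and 37.8 in LS, and n-mir311 had 2.37, 3.59 and 3.31 CPM in HL, 2.56, 2.58 and 3.96 in HS, 2.13, 4.30 and 4.21 in LL, with 2.31, 6.73 and 4.69 in LS. All 3 were lowest in the 2 cool libraries numbered 1. n-mir319 went the other way, with 2.01, 1.5 and 1.77 CPM in HL, 2.33, 2.30 and 2.07 in HS, 2.90, 1.02 and 1.38 in LL, with 3.82, 1.89 and 1.66 in LS, and n-mir197 had 20.6, 19.6 and 16.6 CPM in HL, 16.5, 16.6 and 13 in HS, 32.3, 21.5 and 13.4 in LL, with 31.6, 20.2 and 12.9 in LS. Both were highest in those 2 libraries. n-mir48 stood low in LS replicate 1 alone, with 0.769, 0.899 and 0.709 CPM in HL, 1.02, 1.26 and 0.887 in HS, 0.652, 0.510 and 0.782 in LL, with 0.116, 0.472 and 0.772 in LS.

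**Figure D4:**
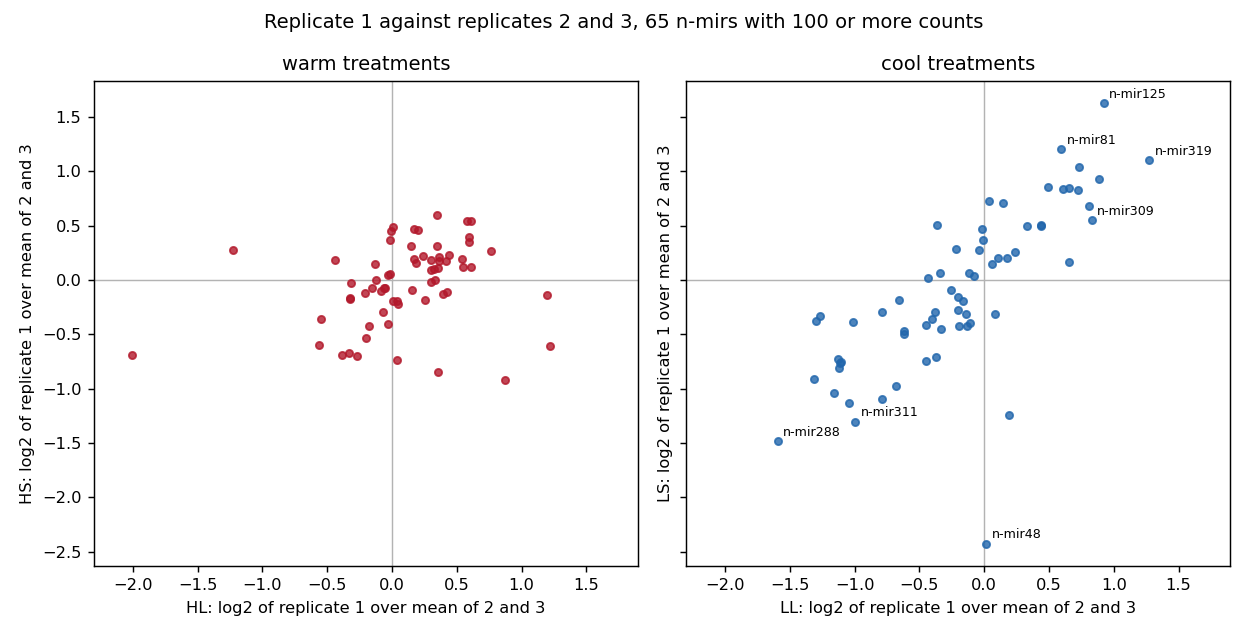
Log2 ratio of replicate 1 to the mean of replicates 2 and 3 for the 65 n-mirs with at least 100 counts: in the left panel HL (x axis) and HS (y axis), in the right panel LL (x axis) and LS (y axis), 1 point per n-mir. The points spread along the diagonal in the cool treatments, from n-mir288 at -1.59 and -1.48 to n-mir125 at 0.92 and 1.63. Pearson r is 0.751 in the right panel and 0.273 in the left.

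How the 2 libraries came to differ was not tested. Without both of them, 12 of 85 members tested were called for temperature, 2 higher and 10 lower in warm, beside 13 higher and 40 lower of all miRNAs tested, and 9 of the 12 were among the 13 called with all libraries. n-mir115, n-mir185, n-mir314 and n-mir78 were no longer called (adjusted p = 0.0724, 0.0645, 0.089 and 0.131). n-mir13 (0.71, adjusted p = 0.0385), n-mir220 (-0.46, adjusted p = 0.0132) and n-mir311 (-0.69, adjusted p = 0.0192) were called in their place. HS against LS then had 6 members called, beside 31 of all miRNAs, and HL against LL had 3, beside 21.

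Of the 37 members ending in TT, all tested, 2 were called for temperature (n-mir70 and n-mir185), and of the other 49 tested, 11 were, beside 52 of all 248. The difference was not tested. The TT members were also the rarer ones, as given above, and the part that their depth plays in this was not tested. Of the 13 called for temperature, all had at least 100 counts, and 0 of the 21 tested members under 100 counts were called. At those counts a change could pass only if it was large.

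A single degradome library, for which RNA of all 4 treatments was mixed, reads the 5′ ends of cut RNA. None of its 5359 deposited tags, with 263397 copies, held the whole sequence of a member on either strand. A count of 0 allows a share of up to 0.00114% of the copies for each. A tag shorter than a member could not hold it, and tag lengths are not given here, so no conclusion is drawn from the 0. These tags are the ones annotated as other RNA, so mRNA cut sites were not analysed here.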

How the data were processed

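The authors trimmed the small RNA reads, selected tags by size, mapped them to the cucumber genome, predicted hairpins and deposited raw counts of tags summed per mature miRNA, with mismatches tolerated at the tag ends. Length variants of a miRNA are therefore counted together. The mapper is not given in the sources used here. Clean reads per library (16634520 to 17659346) came from the study's sequencing summary and set the CPM and the library sizes. The degradome copies are deposited counts per tag. The members and lists were chosen with earlier results of these data known. By rule, values are given for called members, the 10 most abundant, members with shared seeds or tandem repeats and those under 10 counts, except 1 member whose sequence and values are not reported here. Tests used edgeR 4.0.16 (1 fit of the 4 treatments, R 4.3.3, clean reads as library sizes, at least 10 counts over 12 libraries). Its SE was taken from the change and the F statistic. DESeq2 1.42.0, TMM, other filters, a replicate block and leaving out libraries were alternatives. Leaving out LL replicate 1 and LS replicate 1 together was chosen after seeing the data. The test was checked on simulated counts. Precursor sequences came from the study's supplement and were folded with RNAfold 2.7.2. Python 3.11.15 and pandas 2.3.3 were used. The mRNA table (FPKM) was not used. Its transcripts have no names in the reference here, so small RNA machinery genes were not tested. No per-sample column was left out.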

Additional observations from a re-analysis of the deposited data

How the results depend on the processing

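The number of members called for temperature was 13, beside 52 of all 248. Every alternative other than the study's limits gave 9 to 15 members, beside 40 to 58 of all miRNAs tested. The study's limits gave 0 members in all 3 temperature comparisons, beside 18 of all for temperature and 10 in each of HS against LS and HL against LL. With 1 library left out, 9 to 14 members were called for temperature, beside 40 to 54 of all. HS against LS (5, beside 30 of all 248) gave 1 with TMM scaling, beside 18 of all. With 1 library left out it gave 2 to 7, beside 17 to 33 of all. HL against LL (2, beside 23 of all 248) gave 8 with DESeq2, beside 35 of all. It gave 4 when 10 counts in 3 libraries were required, beside 25 of all, and 0 to 7 with 1 library left out, beside 7 to 34. Photoperiod, HL against HS, LL against LS and the interaction stayed at 0 members under every alternative run. Of all miRNAs, photoperiod then gave 0 to 3, HL against HS 1 or 2, and LL against LS and the interaction 0. Of the 8 left out by number, the study's limits called 5 for temperature, 1 in HS against LS and 3 in HL against LL. The study's limits call fewer because they require a fold and a smaller p. For the others the cause was not tested. The replicate block called 15 members for temperature, 8 in HS against LS and 11 in HL against LL, beside 58, 40 and 41 of all. Of 18 pairs of libraries with the same number, 14 had deviations correlated over 0.1 (r from -0.0692 to 0.763), and 11 of 12 libraries correlated best with their own number, a hint from the data and not from the design. The LL and LS pairs gave 0.763, 0.705 and 0.470, and the other same-number pairs -0.0692 to 0.405. Deviations within a treatment sum to 0, so these pairs and libraries are not independent. The block ended none of the calls in these comparisons. Per 1000000 summed miRNA counts the members averaged 25043 in HL, 16865 in HS, 25168 in LL, with 22821 in LS. With the 8 left out by number added, the summed CPM was 1817 in HL, 1834 in HS, 2092 in LL, with 2303 in LS. Tests of small RNA machinery mRNAs and their alternatives were not run. Depth limits the 22 members with under 100 counts.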
